A study of Mus musculus with 42 samples.

Results

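The 36 genes described here carry a cell through mitosis: mitotic cyclins and Cdk1, the mitotic kinases, the spindle checkpoint, the anaphase-promoting complex (APC/C) with securin and separase, the kinetochore, the chromosomal passenger complex, spindle motors, cytokinesis factors, condensin and topoisomerase. They were taken by gene symbol from an expression table of 12988 mouse genes, and all 36 had a row in it. All 36 also passed the filter on low values, at least 1 CPM (counts scaled to a fixed total) in 2 or more libraries, which 12987 genes passed. The rule takes genes by name and uses no expression threshold, but the list was drawn up with earlier results of these data known.

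The fathers were C57BL/6J males, 8 weeks old at the start, and received for 67 days either vehicle or DEHP, a phthalate plasticizer, at a low dose (2.5 mg/kg/day) or a high dose (25 mg/kg/day). They were mated with unexposed females. The offspring were collected at E7.5, the stage of gastrulation, are labelled as wild type on a C57BL/6 * DBA/2J background, and carry the dose of the father as control, low or high. Only fathers were exposed. The labels list 12 RNA sequencing samples, from embryonic and extra-embryonic tissue, and 30 samples of reduced representation bisulfite sequencing (RRBS, which reads DNA methylation in CpG-rich fragments), among them sperm. The labels also give an age for the sperm samples, which is lower than the start age and the 67 days of exposure together. The labels do not explain this mismatch, so the age of the males at sperm collection is uncertain. The expression table analysed here has 6 libraries, 2 for each paternal dose, and the methylation table has 9 libraries, 3 for each. Column names give the dose group and a library number only, which leaves the tissue of both tables unknown, sperm or offspring in the case of methylation. Nothing says that libraries of a dose came from separate litters or fathers, so p-values measure only the spread between these libraries, which may be technical.

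Cells of the mouse embryo divide very fast at gastrulation, so transcripts of mitosis genes are abundant there. Cyclin B with Cdk1 drives entry into mitosis, the kinetochore joins chromosomes to spindle microtubules, and the checkpoint holds back the APC/C until every chromosome is attached. The APC/C then marks securin and cyclin B for destruction, separase cuts cohesin, and spindle midzone proteins set the place where the cell divides. Many of these genes are known to be transcribed in G2 and mitosis through 2 promoter elements: CCAAT boxes, bound by NF-Y, and the cell cycle genes homology region (CHR), with the core TTTGAA, bound by the DREAM and MuvB complexes.

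The promoters of the genes were read first, because letters shared among genes of the 9 roles can be counted without any use of expression. RefSeq (GRCm38.p6) windows of 300 bases, 250 before to 50 after the start, were at hand for 30 of the 36 genes, and both strands were searched. CCAAT stood in the windows of 23 of the 30 genes (76.7%), against 43.2% of 9932 genes of the expression table with a window. The CHR core TTTGAA stood in 22 of 30 (73.3%), against 13.7%, and both stood in 20 of 30 (66.7%), against 5.73%. More than 1 CCAAT was found in 14 of 30 genes (46.7%), against 16.9%. Over all 27025 genes with a window the shares were 41.1% for CCAAT, 20.2% for TTTGAA and 7.97% for both. Of 31 TTTGAA matches in the 32 windows of the genes, 24 lay within 50 bases of the start. Ect2 and Prc1 each had more than 1 window, and these overlap, so their matches were counted more than once. The share near the start was not computed for other genes. The windows of Birc5, Mad2l1, Ncaph, Nuf2 and Pttg1 held neither set of letters. The other CHR form TTCGAA was in 3 of 30 genes, Bub1, Bub1b and Top2a. A match is a description of letters and not a measured binding site.

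The 7 stretches of 120 bases just before the outermost annotated start printed here run 5′ to 3′ on the strand of the gene, and belong to members whose values are described further on. Capitals mark CCAAT (or ATTGG, the same letters on the other strand) and TTTGAA (or TTCAAA).
Ccnb1, chr13:100786571-100786690, minus strand: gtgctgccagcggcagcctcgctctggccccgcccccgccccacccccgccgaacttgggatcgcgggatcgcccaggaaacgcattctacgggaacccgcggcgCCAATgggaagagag
Ccnb2, chr9:70421555-70421674, minus strand: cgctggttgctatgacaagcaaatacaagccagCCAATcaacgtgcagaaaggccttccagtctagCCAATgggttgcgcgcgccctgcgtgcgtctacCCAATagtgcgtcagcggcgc
Cdk1, chr10:69352939-69353058, minus strand: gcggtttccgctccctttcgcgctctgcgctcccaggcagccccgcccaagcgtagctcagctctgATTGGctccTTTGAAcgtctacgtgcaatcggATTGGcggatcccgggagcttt
Cdc20, chr4:118437353-118437472, minus strand: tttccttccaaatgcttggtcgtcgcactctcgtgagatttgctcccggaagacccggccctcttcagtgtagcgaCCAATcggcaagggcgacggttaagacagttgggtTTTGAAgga
Kif11, chr19:37376262-37376381, plus strand: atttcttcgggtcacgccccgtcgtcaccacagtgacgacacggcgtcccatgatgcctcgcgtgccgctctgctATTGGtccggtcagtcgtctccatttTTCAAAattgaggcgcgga
Kif23, chr9:61946800-61946919, minus strand: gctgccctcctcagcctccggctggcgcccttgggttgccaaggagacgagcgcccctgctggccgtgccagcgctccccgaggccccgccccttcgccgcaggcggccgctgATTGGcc
Top2a, chr11:99024190-99024309, minus strand: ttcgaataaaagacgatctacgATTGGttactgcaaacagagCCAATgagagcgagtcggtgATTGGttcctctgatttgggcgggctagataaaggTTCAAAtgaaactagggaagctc

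In these stretches Ccnb2 held 3 CCAAT boxes and Top2a held 3, while Ccnb1 and Kif23 each held 1. The whole windows held 3 in Ccnb2, 6 in Top2a, 2 in Ccnb1 and 1 in Kif23. TTTGAA or its complement stood close before the start of Cdk1, Cdc20, Kif11 and Top2a. Ccnb1, the gene with the largest difference between dose groups in the values that follow, held no TTTGAA in its whole window, and Kif23 held 1 that began 2 bases after the start.

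The genes varied little across the 6 libraries. The standard deviation of log2(CPM + 1) over all 6, with the doses pooled, had a median of 0.065 over the 36 genes, against 0.086 over all genes tested, and ranged from 0.030 for Ccna2 and Ttk to 0.118 for Ndc80. Of the 36, 26 lay below the median of all genes. The genes also had higher CPM than most, a median of 129.95 against 20.5. Their spread was not compared with that of genes of similar CPM, so the lower spread is not called particular to them. CPM were not divided by transcript length, so levels are compared here only within a gene.

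Top2a, the topoisomerase that untangles sister chromatids, stood at 703 and 725 CPM in the control libraries, 699.99 and 659 in the low and 701 and 725 in the high libraries. Ccna2 (cyclin A) stood at 194 and 193 CPM in the controls, 192 and 184 in the low and 189 and 195 in the high libraries. For both genes the dose means differed by less than the 2 low libraries did, and the low 2 library was the lowest for each. Summed over the 36 genes, CPM were 5461 and 5469 in the controls, 5332 and 5174 in the low and 5439.5 and 5543 in the high libraries.

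**Figure D1:**
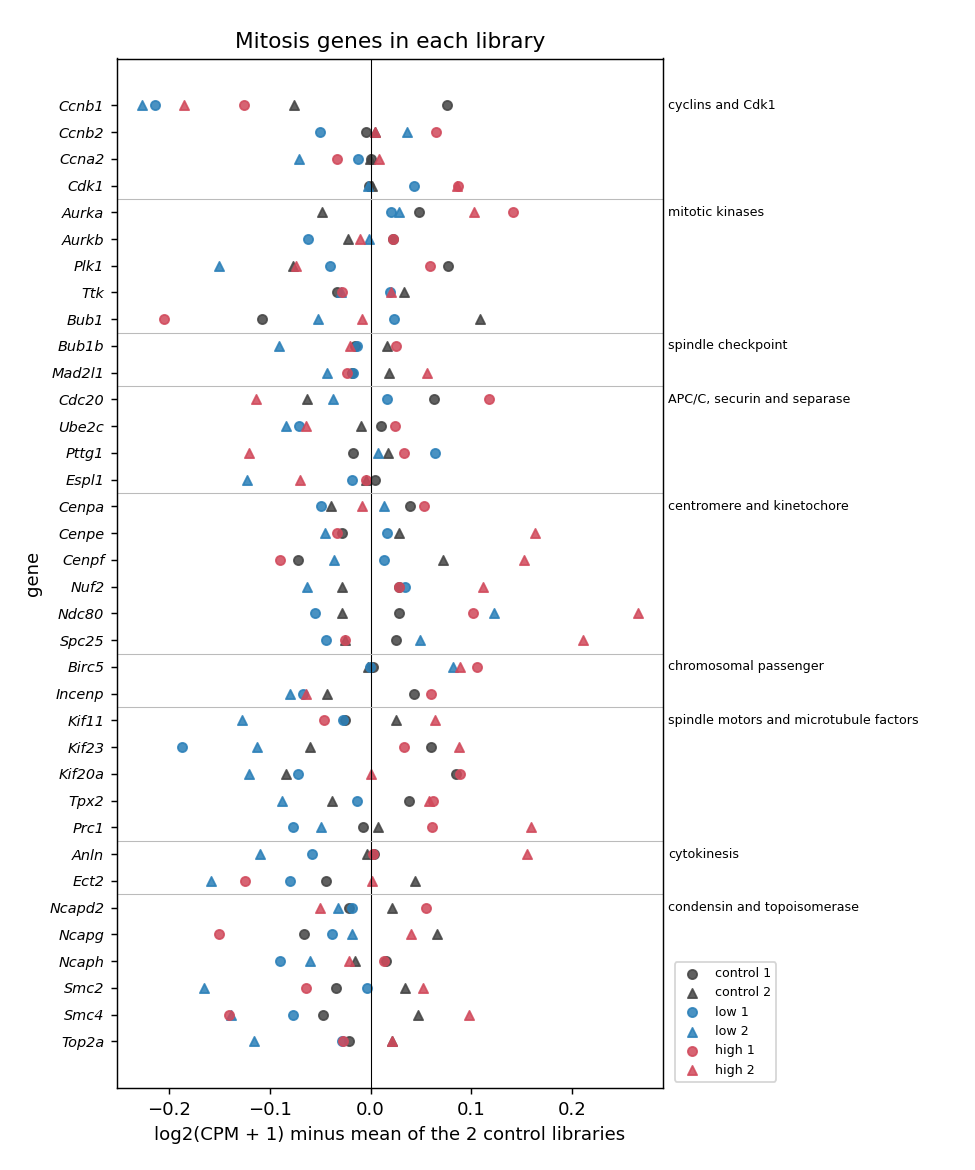
Each row is one of the 36 genes, ordered by role, and each point a library, drawn as log2(CPM + 1) minus the mean of the 2 control libraries of that gene. Circles and triangles are libraries 1 and 2 of control (grey), low (blue) and high (red). Ccnb1 has both low and both high libraries left of both controls, and Kif23 has both low libraries left of the other 4.

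For low against control, no gene of the 36 passed the test. limma, fitted over all 12987 genes and adjusted by Benjamini-Hochberg, called 0 of the 36 at an adjusted p under 0.05, and 0% of all genes. At an unadjusted p under 0.05 it took 2 of the 36, against 4.87% of all genes, and no other tool was run. The values leaned one way: 30 of the 36 log2 fold changes were below 0, against 49% of all genes (51% were above), with a median of -0.04 against 0.00 over all genes and a range of -0.22 to 0.04. Both low libraries lay below both controls for 13 genes, against 17.2% of all genes, and above both for 0, against 18%. The 13 were Ccnb1, Ccna2, Ube2c, Espl1, Incenp, Kif11, Kif23, Prc1, Anln, Ect2, Ncaph, Smc4 and Top2a, which come from 6 of the 9 roles; they were read from the values after the count.

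Ccnb1, cyclin B1, the partner of Cdk1 at mitotic entry, had the smallest p. It stood at 255 and 229 CPM in the controls, 208 and 206 in the low and 221 and 212 in the high libraries. Both low and both high libraries lay below both controls, and the gap from low 1 to the lower control was smaller than the gap between the controls. The log2 fold change for low against control was -0.22 with a standard error of 0.065 (0.858-fold; adjusted p = 0.928, limma). Its sister gene Ccnb2 (cyclin B2) showed no such order, with 72.4 and 72.9 CPM in the controls, 70.1 and 74.5 in the low and 76.0 and 72.8 in the high libraries. Cdk1 stood at 166 and 166 CPM in the controls, 171 and 166 in the low and 176 and 176 in the high libraries. The reference also lists the pseudogenes Ccnb1-ps and Ccnb2-ps, and reads shared with them cannot be placed. Over all genes together, 20.8 to 22.9% of each deposited column was reads without a unique place. How many of these belong to Ccnb1 or Ccnb2 is not known, so both cyclin B values are uncertain.

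Kif23 came next. It is the motor of centralspindlin, which bundles microtubules between the separating chromosomes and marks the division plane. It stood at 92.6 and 85.1 CPM in the controls, 77.8 and 82.0 in the low and 90.9 and 94.4 in the high libraries, so that the low libraries lay below all 4 others. The log2 fold change for low against control was -0.15 with a standard error of 0.064 (adjusted p = 0.928, limma). Ect2, the exchange factor that centralspindlin brings to the cortex to switch on RhoA, stood at 78.6 and 83.6 CPM in the controls, 76.7 and 72.5 in the low and 74.3 and 81.2 in the high libraries. Its log2 fold change for low against control was -0.12 with a standard error of 0.068 (adjusted p = 0.928, limma), and the low and high libraries overlapped.

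For high against control, again 0 of the 36 genes passed, and limma called 1 gene of the whole table (0.0077%), which is no member. At an unadjusted p under 0.05 it took 1 of the 36, against 5.29% of all genes. Fold changes were above 0 for 21 of 36 genes, against 58.6% of all genes, and with the columns rescaled to the same total for 16 of 36. The median was 0.00 as deposited and -0.01 rescaled, against 0.02 over all genes as deposited, and the range was -0.16 to 0.18. Both high libraries lay above both controls for 6 genes (Cdk1, Aurka, Ndc80, Birc5, Tpx2 and Prc1), against 23.5% of all genes. They lay below for Ccnb1 alone, against 12.1%.

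Ccnb1 had the smallest p here too, with a log2 fold change of -0.16 and a standard error of 0.065 (adjusted p = 0.866, limma). Both of its comparisons use the same 2 control libraries, so the second is no independent repeat of the first. Ndc80, the kinetochore subunit that grips the microtubule, stood at 42.1 and 40.5 CPM in the controls, 39.7 and 45.04 in the low and 44.4 and 49.8 in the high libraries. Its log2 fold change for high against control was 0.18 with a standard error of 0.085 (adjusted p = 0.866, limma), and high 2 alone stood apart from the low libraries. Aurka, the kinase of spindle poles, stood at 105 and 98.5 CPM in the controls, 103 and 104 in the low and 112 and 109 in the high libraries, all 4 others lying below the high ones. Its log2 fold change for high against control was 0.12 with a standard error of 0.057 (adjusted p = 0.866, limma).

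For high against low, 0 of the 36 genes passed and 0% of all genes. At an unadjusted p under 0.05 limma took 3 of the 36, against 7.91% of all genes. Fold changes were above 0 for 33 of the 36 genes, against 57.5% of all genes, with a median of 0.07 against 0.01 over all genes and a range of -0.09 to 0.21. With quantile normalization and with columns rescaled to the same total, 32 of 36 were above 0. The 3 below 0 were Bub1 (-0.09), Pttg1 (-0.08) and Ncapg (-0.03). Both high libraries lay above both low libraries for 13 genes, against 21.8% of all genes, and below for 0, against 11.8%. This comparison uses the same low libraries as the first, so its values and those of low against control are not independent.

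Kif23 had the smallest p for high against low, with a log2 fold change of 0.21 and a standard error of 0.064 (1.16-fold; adjusted p = 0.431, limma). Prc1, which crosslinks antiparallel microtubules in the midzone, stood at 89.2 and 90.1 CPM in the controls, 84.9 and 86.6 in the low and 93.5 and 100.2 in the high libraries, and the 3 groups did not overlap. Its log2 fold change for high against low was 0.17 with a standard error of 0.057 (adjusted p = 0.456, limma). Anln (anillin), the scaffold of the contractile ring, stood at 81.7 and 81.3 CPM in the controls, 78.2 and 75.4 in the low and 81.7 and 90.9 in the high libraries, with high 2 apart from the rest. Its log2 fold change for high against low was 0.16 with a standard error of 0.066 (adjusted p = 0.593, limma). As textbook roles, Kif23 and Prc1 act in the spindle midzone and Anln in the cleavage furrow. None of the 3 passed, so no shared role is read from them. The Prc1 span overlaps that of Rccd1 over 21810 bp, and whether counting used strand is not given in the sources used here, so its values are uncertain.

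**Figure D2:**
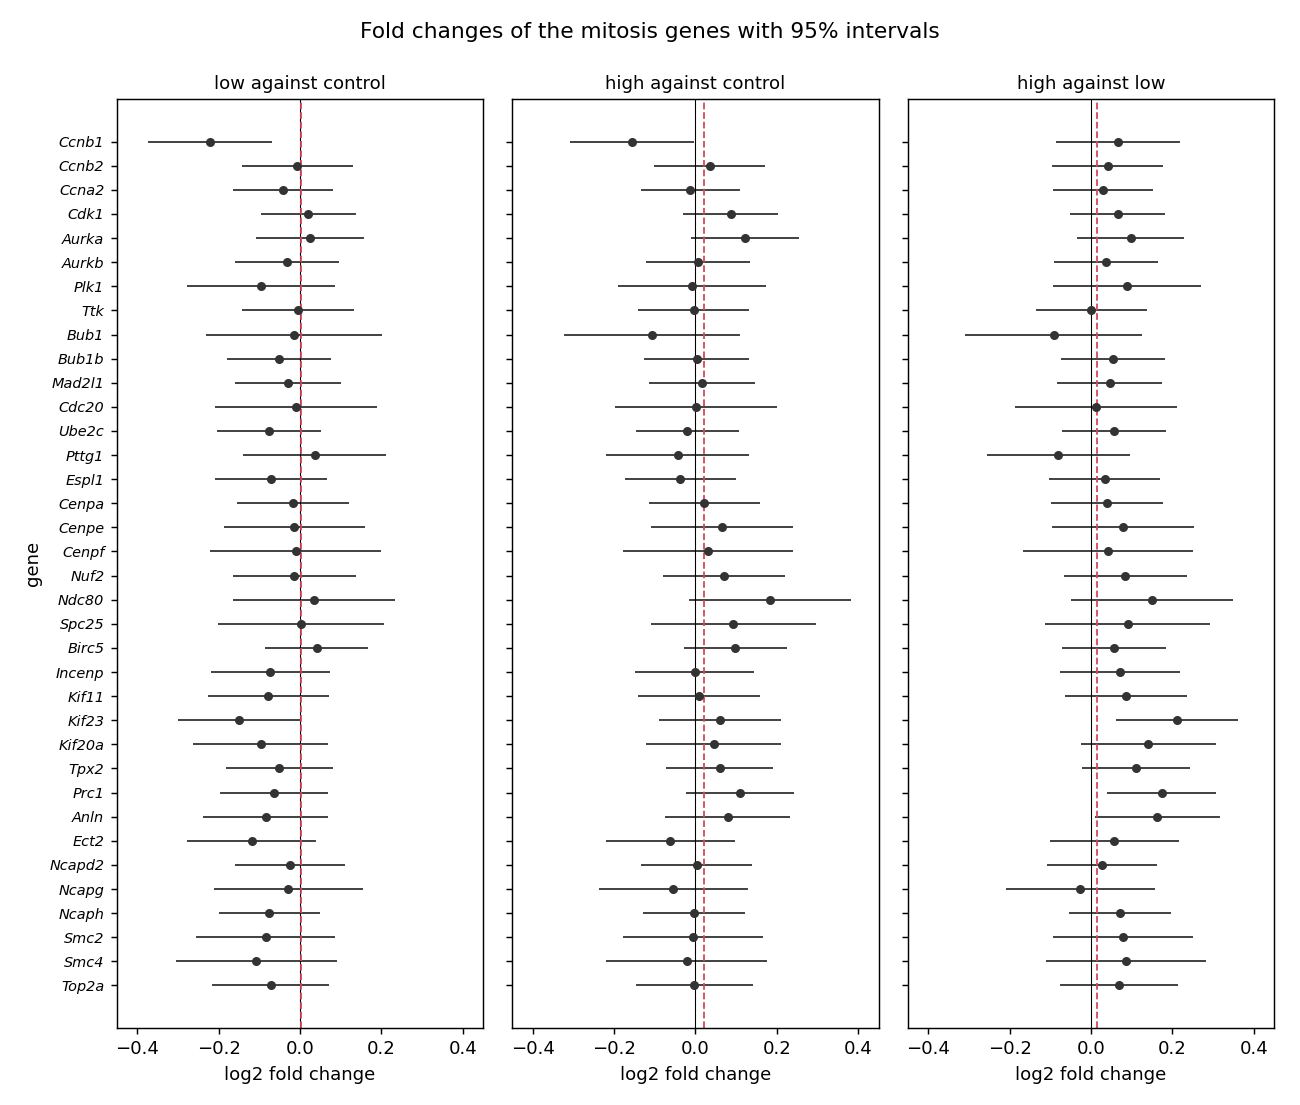
Points are log2 fold changes of the 36 genes in the 3 comparisons, with unadjusted 95% limma intervals as bars, and the dashed line is the median of all genes tested. The intervals of 2, 1 and 3 genes leave out 0 in the panels from left to right, and the widest bound of any reaches 1.30-fold.

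The limma intervals of the fold changes rest on the spread between these libraries, which may be technical. They describe differences between these libraries and set no limit on an effect of paternal dose. The half-width of the unadjusted 95% interval lay between 0.12 and 0.22 on the log2 scale, with a median of 0.15. No interval of the 36 genes reached beyond 1.295-fold for low against control, 1.304-fold for high against control and 1.284-fold for high against low. These bounds are for single genes, unadjusted for the number of genes tested, and are not a limit of detection. A p that missed the threshold does not show that the doses act alike.

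By role, the 5 spindle motor and microtubule genes had the median furthest from 0 for high against low. Their median log2 fold change was -0.08 for low against control, where 0 of 5 were above 0, and 0.14 for high against low, where 5 of 5 were. For low against control the 2 cytokinesis genes, Anln and Ect2, had a median of -0.10, and for high against control the kinetochore genes had a median of 0.07 against 0.06 for the motors. Kif11, the motor that pushes the spindle poles apart, stood at 188 and 195 CPM in the controls, 188 and 175 in the low and 186 and 200.5 in the high libraries, so that the low and high groups overlapped. Kif20a, the motor that carries the chromosomal passengers to the midzone, stood at 222 and 198 CPM in the controls, 199 and 193 in the low and 223 and 209.6 in the high libraries. Its span overlaps Cdc23 over 2327 bp. Tpx2, which activates Aurka on the spindle, stood at 195 and 185 CPM in the controls, 188 and 178 in the low and 198 and 197 in the high libraries. The low group lay below the high group for Kif20a and Tpx2, and overlapped the controls for both.

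The 6 kinetochore and centromere genes had fold changes above 0 in 6 of 6 cases both for high against control (median 0.07) and for high against low (median 0.08), and in 2 of 6 for low against control (median -0.01). The value rested on high 2 in several. Cenpe, the kinetochore motor, stood at 122 and 127 CPM in the controls, 126 and 121 in the low and 122 and 140.0 in the high libraries. Spc25, a partner of Ndc80, stood at 46.2 and 44.6, then 44.01 and 47.03, then 44.6 and 52.7 CPM in the same order, and Cenpf at 222 and 246, 236 and 228, and 219 and 259.8. In these 3 genes high 1 lay below both controls and high 2 above the other 5 libraries. Nuf2, which pairs with Ndc80, and Cenpa, the centromeric histone, ranged from 51.3 to 58.0 and from 92.8 to 99.7 CPM.

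The 5 condensin subunits and Top2a, which compact and untangle chromosomes, had fold changes below 0 in 6 of 6 cases for low against control (median -0.07). For high against control 1 of 6 was above 0 (median 0.00, range -0.05 to 0.00), and for high against low 5 of 6 (median 0.07). Smc2 stood at 152 and 159.5 CPM in the controls, 155 and 139 in the low and 149 and 162 in the high libraries, and Smc4 at 248 and 265, 243 and 232, and 232 and 274. Low 2 was the lowest library for Smc2 and high 1, at 232.18 CPM, for Smc4, where low 2 stood at 232.4. Ncapd2, Ncapg and Ncaph ranged from 284 to 306, from 115 to 134 and from 67.4 to 72.6 CPM. Ncapg overlaps Lcorl over 3366 bp.

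The 2 checkpoint and 4 exit genes had medians of -0.04 and -0.04 for low against control, where the 36 genes had -0.04. For high against low their medians were 0.05 and 0.02, where the 36 genes had 0.07. Bub1b and Mad2l1, which hold back Cdc20, ranged from 162 to 176 and from 90.4 to 96.9 CPM. Cdc20, the activator of the APC/C, stood at 211 and 193 CPM in the controls, 204 and 196 in the low and 219 and 186 in the high libraries, so that the 2 high libraries were the highest and the lowest of all 6. Ube2c, the ubiquitin-conjugating enzyme of the APC/C, ranged from 129 to 139 CPM, Espl1 (separase) from 134 to 146 and Pttg1 (securin) from 26.1 to 29.8. The log2 fold changes of these 6 genes in the 3 comparisons lay between -0.08 and 0.06. Cdc20 overlaps Elovl1 over 53 bp.

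Among the kinases, Plk1, which acts at centrosomes, kinetochores and the midzone, stood at 169 and 152 CPM in the controls, 156 and 144 in the low and 167 and 152 in the high libraries. Bub1, a checkpoint kinase at the kinetochore, stood at 178 and 208 CPM in the controls, 196 and 186 in the low and 167 and 191 in the high libraries. For both genes the 2 controls, and likewise the 2 high libraries, differed by more than the dose means did for high against control. Aurkb, the kinase of the passenger complex, and Ttk (Mps1), which starts the checkpoint, ranged from 86.8 to 92.2 and from 55.6 to 58.2 CPM. Birc5 (survivin), the passenger that reads centromeric chromatin, stood at 98.9 and 98.6 CPM in the controls, 98.7 and 105 in the low and 106 and 105 in the high libraries. Incenp, the scaffold of that complex, ranged from 155 to 171 CPM. The span of Ccna2 overlaps that of Exosc9 over 863 bp.

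The lean in the comparisons with the low group was larger with the low 2 library than without it. It was the lowest of the 6 libraries for 18 of the 36 genes, against 13.3% of all genes, and low 1 was the lowest for 8, against 20.4%. High 1 was the highest for 13, against 20.5%, and high 2 for 14, against 24.5%. The median over the 36 genes of log2(CPM + 1) minus the mean of the gene was 0.00 and 0.01 in the controls, -0.01 and -0.05 in the low and 0.03 and 0.04 in the high libraries. Over all genes these medians lay between -0.01 and 0.02. Without low 2 the median log2 fold change for low against control was -0.03 with 9 of 36 above 0, and without low 1 it was -0.06 with 7 of 36. For high against low it was 0.05 with 28 of 36 above 0 without low 2, and 0.07 with 27 of 36 without high 2.

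Other genes of the pathway were taken from lists chosen by role, and none passed in any comparison. Of 29 further spindle and cytokinesis genes, 2 had a fold change above 0 for low against control (median -0.04), 20 for high against control (median 0.03) and 29 for high against low (median 0.08). The smallest p for high against low belonged to Spag5, a spindle-pole protein, at 105 and 102 CPM in the controls, 93.6 and 98.03 in the low and 109 and 106 in the high libraries, and to Tacc3, a spindle microtubule protein, at 114 and 109.7, 107 and 107, and 119 and 118. Their log2 fold changes for high against low were 0.16 (adjusted p = 0.468, limma) and 0.15 (adjusted p = 0.489). Both genes had both high libraries above all 4 others.

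Over all genes, 57.5% had a fold change above 0 for high against low, 58.6% for high against control and 51% for low against control. Of 32 further kinetochore genes, 23 were above 0 for high against low (median 0.04), 22 for high against control (0.02) and 15 for low against control (-0.02). Of 17 further APC/C genes these counts were 14, 12 and 8, of 14 cohesin genes 9, 5 and 3, and of 4 condensin II genes 4, 3 and 1. Of 10 genes of mitotic entry control the counts were 8, 7 and 4, and of 18 cell cycle transcription factors 10, 11 and 9. Foxm1, a factor known to drive G2 genes with MuvB and Mybl2, stood at 97.6 and 93.9 CPM in the controls, 88.6 and 96.6 in the low and 100.9 and 101.4 in the high libraries. Its low libraries straddled control 2. Mybl2 stood at 87.7 and 83.3, 82.3 and 86.4, and 94.9 and 87.8 CPM. For high against low the log2 fold change of Foxm1 was 0.13 (adjusted p = 0.720, limma) and that of Mybl2 0.11 (0.825).

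DNA replication genes, which act in the preceding S phase, were set beside the mitosis genes. Of 38, 19 had a fold change above 0 for low against control (median 0.00), 26 for high against control (median 0.03) and 29 for high against low (median 0.02). The mitosis medians in these comparisons were -0.04, 0.00 and 0.07. The difference between the lists was not tested, and nothing is called particular to the mitosis genes from it.

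**Figure D3:**
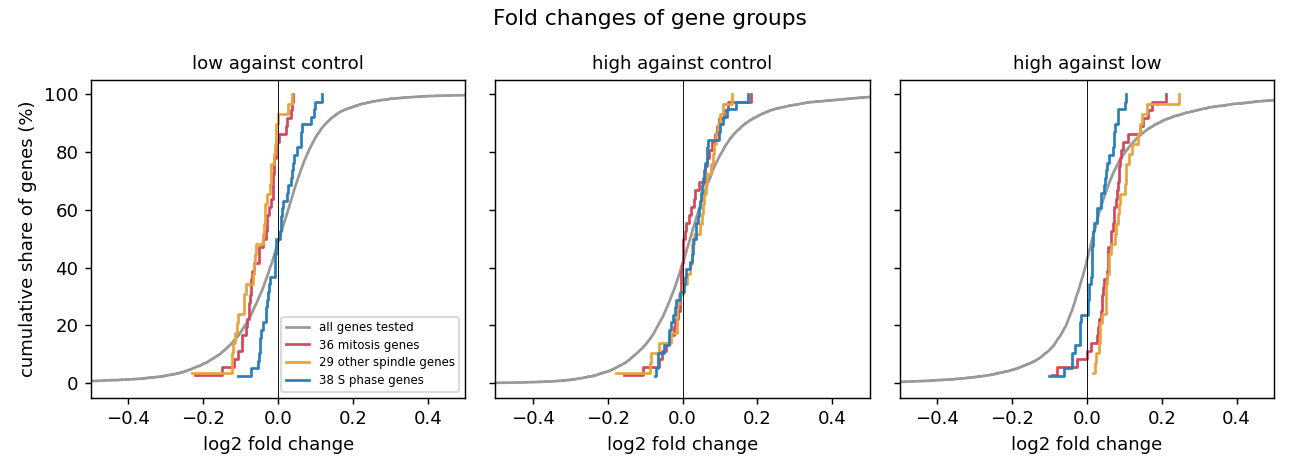
The lines give the cumulative share of genes (%) with a log2 fold change up to the value on the x axis, for all genes tested (grey), the 36 mitosis genes (red), 29 other spindle and cytokinesis genes (orange) and 38 S phase genes (blue). In the right panel the red line crosses 0 with 3 of 36 genes below it and the orange line starts above 0.

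The libraries of 1 dose also differed from each other. Such gaps are between single libraries and the fold changes between means of 2, so their sizes are not set against each other. The median gap between the 2 libraries was 0.06 on the log2 scale over the 36 genes in the controls, 0.06 in the low and 0.09 in the high group, and the largest gaps were 0.22, 0.18 and 0.24. What the library numbers stand for is not given, so the sign of a gap is not interpreted. Across the 36 genes the gap control 2 minus control 1 nonetheless went along with the gap high 2 minus high 1, with Pearson's r of 0.60 and Spearman's rho of 0.58 and the same sign in 25 genes. Over all 12987 genes r was -0.07 and rho 0.05. These are correlations across genes of 1 pair of libraries against another, so genes are not independent points, and no p is given.

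At one end lay Kif20a, with gaps of -0.17 in the controls and -0.09 in the high group, Plk1 (-0.15 and -0.13), Ccnb1 (-0.15 and -0.06) and Cdc20 (-0.13 and -0.23). At the other end lay Bub1 (0.22 and 0.20), Cenpf (0.14 and 0.24), Ncapg (0.13 and 0.19) and Smc4 (0.09 and 0.24). The first 4 genes span 4.45 to 10.4 kb of genome and the second 4 span 29.9 to 47.5 kb. Across the 36 genes the correlation of the gap with the genomic span was 0.49 in the controls, -0.32 in the low and 0.60 in the high group, against -0.05, -0.04 and 0.17 over 12882 genes. Reads outside annotated features made 6.42 and 6.83% of the columns of the controls, 6.43 and 6.73% of the low and 6.31 and 6.67% of the high libraries. Their part in these gaps was not tested.

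**Figure D4:**
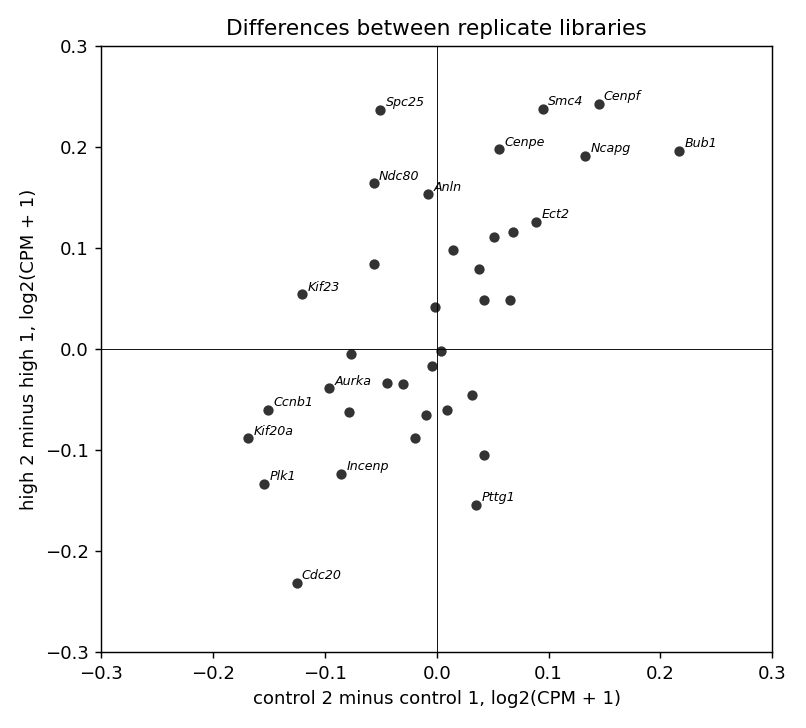
Each point is one of the 36 genes, with the difference in log2(CPM + 1) between the 2 control libraries on the x axis and between the 2 high libraries on the y axis. Genes such as Kif20a, Plk1 and Cdc20 lie low on both axes, and Bub1, Cenpf, Ncapg and Smc4 lie high on both.

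Markers of the cell types of the conceptus varied between the libraries as well. All 6 epiblast markers were measured, with a sum of 660 and 808 CPM in the controls, 896 and 695 in the low and 639.95 and 559 in the high libraries. The 6 primitive streak markers summed to 585 and 603, 712 and 641, and 511 and 422 CPM, and the 6 visceral endoderm markers to 1665 and 819, 1329.7 and 1529, and 1325 and 1798. Of 6 trophoblast markers 5 were measured, with sums of 182 and 213, 274 and 179.9, and 178 and 157 CPM. For high against control this sum ran against most of its list: 4 of the 5 had a log2 fold change above 0 (median 0.50), and Eomes, also counted among the streak markers, stood at -0.62. None of these measured markers was at 0 in any library. The sums for 3 of 4 allantois markers lay between 55.8 and 115 CPM, for 3 of 5 decidua markers between 22.6 and 29.04, for 2 of 4 giant cell markers between 29.4 and 70.9, and the 1 blood marker measured (Gata1) between 1.90 and 2.69. The part of these cell types in the values of the mitosis genes was not tested. In bulk tissue, fewer dividing cells and less RNA per cell cannot be told apart.

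DNA methylation at the starts of the genes was low at every dose. The methylation table holds percent methylation of 141251 tiles of 100 bp, and 104 tiles lay within 500 bp of the starts of 28 of the 36 genes. Ccnb1 and Bub1b had no such tile, and 6 genes (Ccna2, Smc4, Incenp, Kif20a, Aurkb and Tpx2) had no start in the sequence table used. Mean methylation over the 104 tiles was 4.88% ± 0.13 (SD, n = 3) in the controls, 4.77% ± 0.28 in the low and 4.77% ± 0.43 in the high group. Over 43819 tiles at the starts of any gene it was 8.69%, 8.59% and 8.67%. Inside the genes, 59 tiles in 18 of them stood at 48.5%, 48.8% and 48.7%. limma called 0 of these 59, and at an unadjusted p under 0.05 took 3 for low against control (5.08%, against 5.49% of all tiles), 6 for high against control (10.2%, against 4.44%) and 2 for high against low (3.39%, against 4.71%).

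limma called 0 of the 104 tiles in any comparison, and 0% of all tiles in each. At an unadjusted p under 0.05 it took 3 of 104 for low against control, against 5.49% of all tiles, 1 for high against control, against 4.44%, and 1 for high against low, against 4.71%. All tiles averaged 35.7% methylation in the controls, against 4.88% for the 104. Their shares were not compared with those of other start tiles, so nothing is read from the lower shares. The 3 taken for low against control were a tile of Cdc20 and a pair of neighbouring tiles of Cdk1. At chr10:69352801-69352900 of Cdk1 the controls stood at 13.4, 9.06 and 8.12%, the low libraries at 0, 4.96 and 6.12% and the high libraries at 7.26, 5.71 and 5.41%. At chr10:69352901-69353000, part of which is printed in the stretch of Cdk1, the order was the other way: 0.671, 8.15 and 9.12% in the controls, 10.2, 13.2 and 12.6% in the low and 10.6, 12.8 and 12.6% in the high libraries. Adjusted p was 0.838 and 0.886 for low against control (limma), and over its 5 tiles Cdk1 averaged 7.75%, 7.41% and 8.54% in the 3 groups.

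By gene, start methylation ran from 0.303% for Cenpe and 0.408% for Ncaph to 9.04% for Ttk and 10.3% for Top2a, as means over the 9 libraries. The widest spread between libraries was in Smc2, at 4.83, 4.46 and 4.61% in the controls, 1.14, 4.12 and 13.3% in the low and 6.02, 5.26 and 5.29% in the high group. It came from 1 of its 3 tiles, chr4:52438901-52439000, which stood at 40% in low 3. Ect2 likewise stood at 14.3% in low 2 and 14.6% in high 3, and between 4.02 and 10.4% in the other 7 libraries. Kif23, with 6 tiles, stood between 5.59 and 7.01% in all 9. The table gives no coverage, and a single tile's precision cannot be stated. It also does not say which libraries, if any, share a sample with the expression table.

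**Figure D5:**
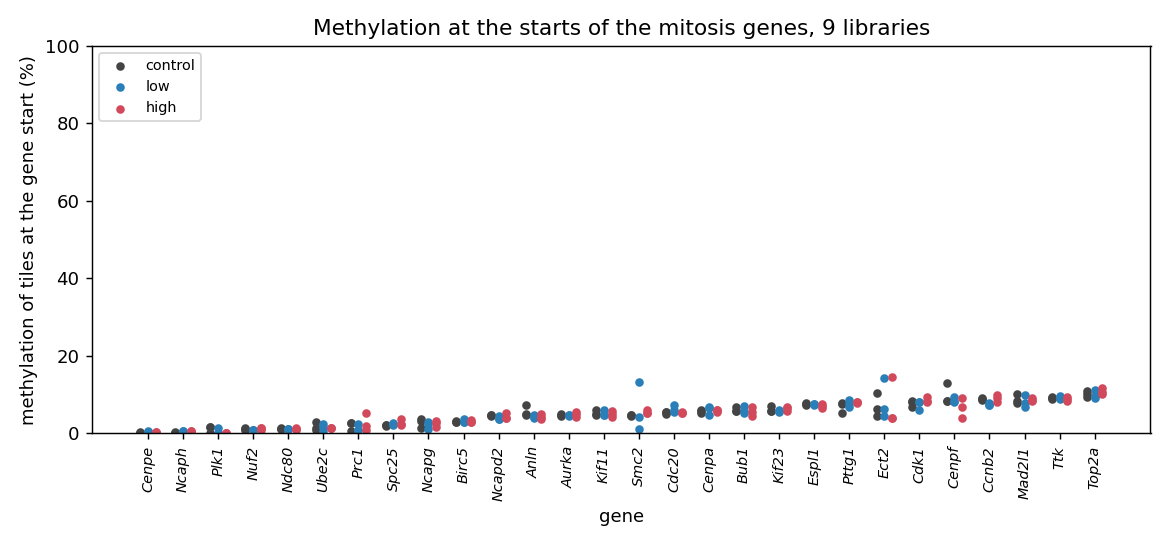
Points are percent methylation averaged over the tiles at the start of each of 28 genes, 1 point for each of the 9 libraries, grey for control, blue for low and red for high. Genes are ordered by their mean, from Cenpe at 0.303% to Top2a at 10.3%, and all points lie below 15% of the axis of 100%.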

How the data were processed

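Gene expression was measured by RNA sequencing and DNA methylation by RRBS. The expression values are CPM per gene as deposited by the authors, per the file headers, with 3 lines for reads without a gene (27.9 to 29.8% of each column), which were kept out of the tests. Columns sum to 982921 to 1017430. Values are whole multiples of a step within a tolerance of 0.05, but the number of steps is only a relative depth and whole reads could not be settled, so no count test was run. Methylation was deposited as percent per 100 bp tile, without the coverage behind it. Bismark, Bowtie 0.12.2, Bowtie2, edgeR, methylKit, SAMtools, TopHat and Trim Galore, and the builds mm8 and mm10, are named with no role per the submitters' processing notes.

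Columns were grouped by the dose in their names. Expression was tested with limma 3.58.1 (R 4.3.3, mean-variance trend) on log2(CPM + 1), 3 groups in 1 fit, 3 residual degrees of freedom, with Benjamini-Hochberg adjustment over 12987 genes and a threshold of 0.05. On this scale the fold change of a gene with few CPM comes out too small. Tiles were tested with limma without a trend, 6 residual degrees of freedom. Tiles within 500 bp of GRCm38.p6 starts numbered 43819 with a mean of 8.65%, and after shifts of 100000 to 3000000 bp 2172 to 3295 with means of 33.9 to 37.1%, so GRCm38 coordinates were used for tiles. limma was first tested on simulated data. The table's gene symbols matched the reference for 36 of 36 genes. The members and all gene lists were chosen with earlier results of these data known. Values are given for every member or its range, and fold changes with errors for the 3 members with the smallest p in each comparison. Genes of other lists are named by smallest p, at most 2 a list. The tiles shown and the members with wide spread were picked after their values were seen. Alternatives were other pseudocounts, filters, scalings, trends and fits, a replicate block and leaving out each library.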

Additional observations from a re-analysis of the deposited data

How the results depend on the processing

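None of the 36 mitosis genes was called in any comparison under any of the alternatives run, and no tile at their starts was. The 9 fold changes named with errors kept their direction in every setting. Over all genes, high against control gave 1 call, and 0 with limma without a trend, 2 with the 2 groups alone in the fit and 0 with the replicate block; high against low gave 0, and 9 with the 2 groups alone. Leaving out 1 library moved the calls over all genes to between 0 and 65 for low against control (65 without low 2), 0 and 2 where the high group met control, and 0 and 291 where it met the low group (291 without low 2), with none of the 36 among them; an arm then has 1 library, assumed to vary like the other groups. Over all alternatives, the median of the members moved between -0.05646 and -0.02798 for low against control. For high against low it moved between 0.04566 and 0.07496. For high against control it was 0.004319 in the main fit. There it moved between -0.009553, with columns rescaled to the same total, and 0.02339, without high 2. The cause was not tested. The gaps between libraries 2 and 1 had Pearson's r of 0.00 (control with low), -0.07 (control with high) and 0.09 (low with high). These are over all genes, where Spearman's rho was -0.17, 0.05 and 0.11 in the same order. Over the 36 genes r was -0.25, 0.60 and 0.03. Whether library numbers pair the libraries cannot be told from these values. The replicate block changed no call among the members. The edgeR and DESeq2 tests and the coverage minimum were not run, since counts and coverage were not used. Only the relative depth of the columns is known, and 2 libraries a group set the size a difference must exceed.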
